A study of Rattus norvegicus with 2 samples.

Results

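The collagen chain genes encode the alpha chains of the collagens, and 34 of them were on the arrays, out of 26328 gene names. They were taken as every gene whose name in the deposited scanner files was Col, a number, a and a second number. They rested on 46 probes, each printed on 1 spot of each array. By the kind of collagen they build, 11 of the genes were fibrillar, 6 belonged to basement membranes and 17 to other collagens.

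The arrays compared a pool of whole hypothalamus RNA from 5 female rats with a pool from 5 male rats, all of the WKY strain and 9 weeks old, to ask how gene expression differs between the sexes. Each rat gave 100 ng of RNA to its pool, and 150 ng of each pool was labelled and hybridised to 1 Agilent 1-colour array. The labels named no drug or mutation for either pool. With 1 array of pooled rats a sex, the spread between rats was not measured, there is no replicate for a test, and no p-value is printed.

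Collagens are proteins of the extracellular matrix in which 3 chains wind around each other in a triple helix, which needs a glycine at regular steps along each chain. Fibrillar collagens are made as precursors whose end propeptides are cleaved off before the molecules assemble into fibrils, while type IV chains form the sheet-like network under endothelium and at the brain surface. In the adult brain, fibrillar collagens of types I and III are known mainly from the meninges, the choroid plexus stroma and the outer wall of larger vessels.

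The repeat that defines the family could be read in the probes themselves. The probe of Col4a1, a chain of the main type IV network, is shown with each codon of the form GGN that recurs at a step of 9 bases in capitals. GGN codes for glycine, and the probe lies at chr16:83146135-83146194 on the plus strand of build rn4.
Col4a1: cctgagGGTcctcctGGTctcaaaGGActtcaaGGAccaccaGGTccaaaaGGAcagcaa
Its run of such codons was 6 long. A run of at least 5 was found in 1 of the 46 collagen probes and in 0.0757% of all 30367 probes.

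Chains of fibrillar collagens are alike at their C-terminal propeptides, and a probe of Col1a1 covers the end of that region. It is shown with the probe of Col3a1, because both chains stood higher in the female pool and their probes carry the same part of related chains. The end of the Col3a1 probe aligns with the start of the Col1a1 probe, and capitals mark the bases identical in the alignment. The probes lie at chr10:83637956-83638015 and chr9:44317465-44317524, both on the plus strand of build rn4.
Col1a1: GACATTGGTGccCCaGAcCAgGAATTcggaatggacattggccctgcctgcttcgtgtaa
Col3a1: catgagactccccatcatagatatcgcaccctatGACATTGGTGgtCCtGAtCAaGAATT
They were identical at 21 of the 26 positions that align. The Col1a1 probe ended in TAA, a stop codon, with no earlier stop in its frame.

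All values below are levels, log2 of a spot's processed intensity relative to the 75th percentile of its array, or differences of levels, female minus male. Probes differ in how brightly they bind, so no level of a gene is set against that of another gene. A gene was measured where a probe was well above background on both arrays. The technical SD given with a difference is the spread between repeated spots of other probes in the same level group, scaled to the number of spots of the gene. Of the 5 level groups the lowest was wide, with repeated probes at levels from -7.33 to -2.92. All dim genes share its SD, which may be too small for the dimmest of them. The technical SD leaves out labelling, pooling and the rats, and 29.5% of all genes differed by more than 2 technical SD. Spots that strayed from the other spots of their probe crowded into 3 bands of slide rows, 61 to 180, 401 to 460 and 521 to 532, with 4.63% of repeated spots inside the bands and 0.370% outside straying by more than 4 robust SD. A spot in these rows is called a band spot below, and its technical SD is that of the bands. Where many repeated spots of a gene were averaged, band spots among them are not always named.

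Of the 34 collagen genes, 29 were measured in both pools, 2 passed the background criterion in the male pool only and 3 in neither. Among the 29, 21 stood higher and 8 lower in the female pool, and the median difference was 0.056 log2. On the same levels, the median over all 20664 measured genes was 0.00012 log2, and 50% were higher in the female pool. With levels scaled to the spike-in controls, which moved the median of all genes to -0.067 log2, 14 collagen genes were higher and 15 lower. Of all genes, 32.0% were higher with that scaling. Under the normexp background correction as planned, described below, 5 collagen genes were higher and 24 lower, and 22.9% of all genes were higher. With the local background of 3 extreme male-array spots reset, a step added after seeing the data, 23 were higher and 6 lower. Of all genes, 63.6% were higher with that reset. Only Col1a2 and Col3a1 were at least 1.5-fold apart, both on the female side and both by at least 2-fold. Of all genes 1.56% were at least 1.5-fold higher and 0.842% at least 1.5-fold lower, and 0.508% were at least 2-fold higher and 0.339% at least 2-fold lower. Of all genes at least 1.5-fold apart, 64.9% were on the female side, and 52.1% with spike-in scaling. Differences below 1.2-fold were found for 21 of the 29 collagen genes, or 72.4%, a lower share than the 86.9% of all genes.

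**Figure D1:**
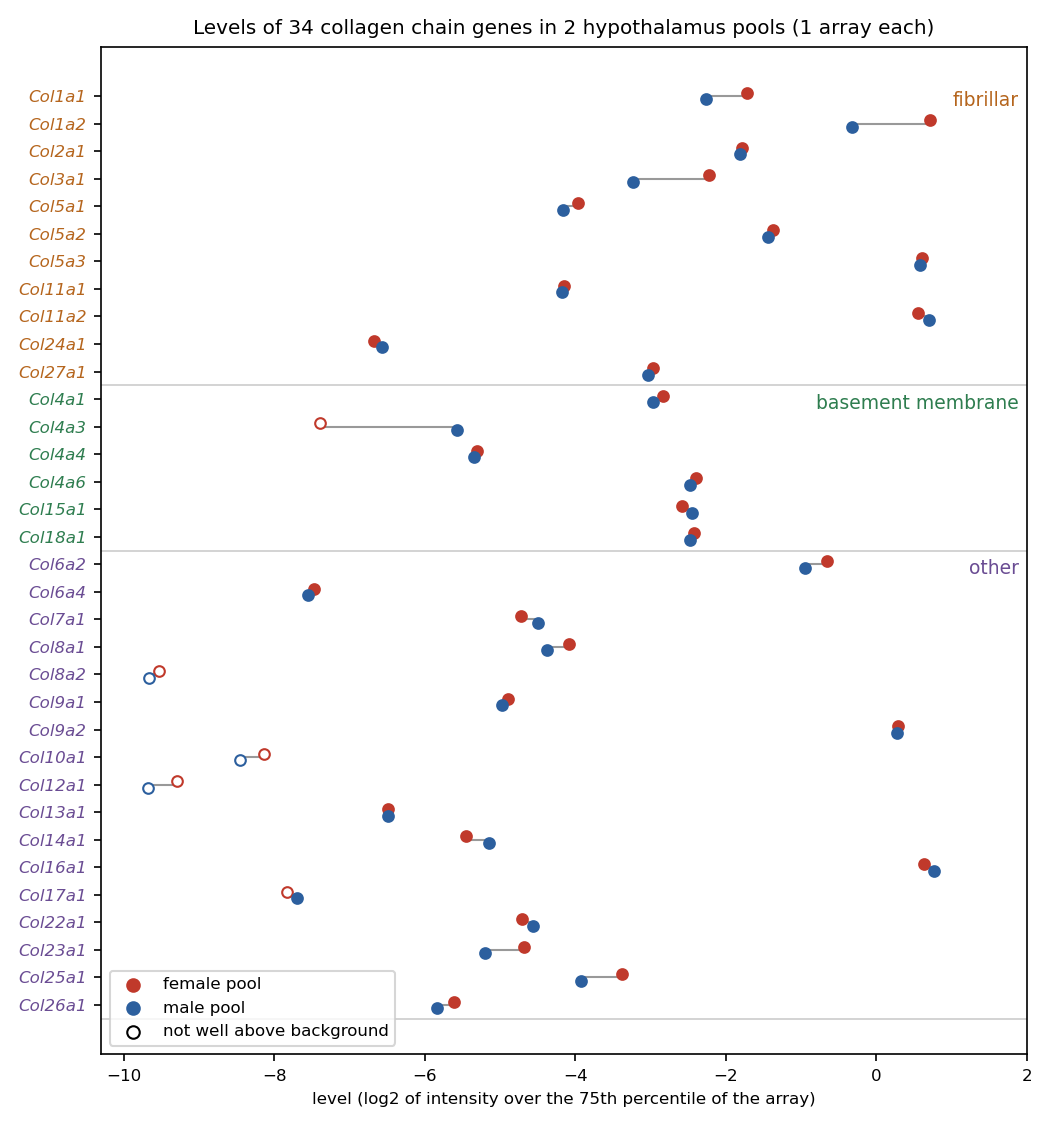
Level of each of the 34 collagen chain genes in the female pool (red) and the male pool (blue), in log2 of intensity over the 75th percentile of the array, with 1 array a pool and no error bars. Col1a1, Col1a2 and Col3a1 at the top show the red point well to the right of the blue one, while most other pairs nearly touch. Open points were not well above background, and levels of different genes are not comparable.

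Among the fibrillar chains, Col1a1, Col1a2 and Col3a1, the chains of collagens I and III, stood at higher levels in the female pool. The 8 others were within 1.2-fold, as were 86.9% of all genes. Collagens I and III are the main fibril formers of connective tissue, 2 Col1a1 chains and 1 Col1a2 chain making collagen I and 3 Col3a1 chains making collagen III. Col1a2 was at 0.71 in the female pool, against -0.33 in the male pool. That is a difference of 1.04 log2 with a technical SD of 0.040. Col3a1 was at -2.23 in the female pool, against -3.23 in the male pool, a difference of 1.01 log2 with a technical SD of 0.051. Neither of these 2 probes was a band spot, and among genes with no band spot 0.24% were at least 2-fold higher and 0.0257% at least 2-fold lower in that pool. In bulk tissue, fewer cells of a type and less RNA per cell cannot be told apart.

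Col1a1, the partner chain of Col1a2, lay just under 1.5-fold. It was at -1.72 in the female pool, against -2.27 in the male pool, which is 0.54 log2 or 1.46-fold with a technical SD of 0.036. Its 2 probes, neither a band spot, differed by 0.49 and 0.59 log2. With the brighter probe alone, Col1a1 passed 1.5-fold. Col1a2 stayed higher by at least 1.5-fold in the female pool under every alternative processing, and Col3a1 under all but the planned normexp background correction, which models the background of raw spot signals. Under that correction, the median of all genes moved to -0.55 log2, and Col1a2, Col3a1 and Col1a1 differed by 0.98, 0.060 and -0.016 log2. With the local background of 3 extreme spots on the male array reset, a step chosen after that result was seen, the same correction gave 1.01, 0.90 and 0.51 log2.

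The region before the start of Col1a2 is shown because Col1a2 had the largest difference among the 29 genes measured in both pools. It is the stretch from 250 to 151 bases before the RefSeq start, at chr4:33518307-33518406 on the plus strand of the rat assembly GRCr8. Capitals mark ATTGG, which is CCAAT read on the other strand, and TATAAA.
Col1a2: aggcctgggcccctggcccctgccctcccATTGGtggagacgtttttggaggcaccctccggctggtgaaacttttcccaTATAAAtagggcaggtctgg
CCAAT on either strand was present in the 250 bases before the start in 34.0% of 33469 RefSeq promoters and in 7 of the 28 promoters found for 26 of the collagen genes. TATAAA on either strand was present in 12.9% of all promoters and in 4 of the 28. Both motifs stood in 4.58% of all promoters and in 3 of the 28, those of Col1a2, Col10a1 and Col17a1. Col10a1 and Col17a1 were not measured in both pools on the probes that carry their names.

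The fibrillar chains that join collagens I and II as minor partners were all within 1.2-fold. Col5a1 and Col5a2 encode chains of collagen V, which copolymerises with collagen I and sets fibril width. Col5a1, a band spot, was at -3.96 in the female pool, against -4.16 in the male pool, a difference of 0.19 log2 as large as its technical SD of 0.19. Col5a2 was at -1.38 in the female pool, against -1.43 in the male pool. Its 2 probes differed by 0.050 and 0.062 log2, the first from a band spot. Col5a3, a further chain of collagen V, was at 0.61 in the female pool, against 0.59 in the male pool. The differences of Col5a2 and Col5a3 were under 1.5 technical SD, and both were below 0 with spike-in scaling, at -0.011 and -0.045 log2.

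The cartilage-type fibrillar chains also lay close together in the 2 pools. Col2a1, the chain of collagen II, was at -1.78 in the female pool, against -1.80 in the male pool, a difference of 0.025 log2 that was -0.043 with spike-in scaling. Col11a1 was at -4.15 in the female pool, against -4.17 in the male pool, but its 3 probes ran from -0.24 to 0.21 log2 and so differed in sign. Col11a2 was at 0.55 in the female pool, against 0.70 in the male pool, which is -0.15 log2 with a technical SD of 0.042. Both of its probes, 1 of them a band spot, were lower in the female pool. Col11a1 and Col11a2 encode chains of collagen XI, the minor partner of collagen II. Col24a1 was at -6.67 in the female pool, against -6.56 in the male pool, and Col27a1, a band spot, at -2.96 in the female pool, against -3.03 in the male pool. These encode later-found fibrillar chains with shorter helices, and both differences were smaller than their technical SD. Without Col1a1, Col1a2 and Col3a1, a split made with their values known, the fibrillar median was 0.024 log2 in place of 0.056. The differences of these 8 genes ran from -0.15 to 0.19. The median of all 11 fibrillar genes was -0.011 with spike-in scaling, -0.22 under normexp as planned and 0.12 with the extreme backgrounds reset.

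**Figure D2:**
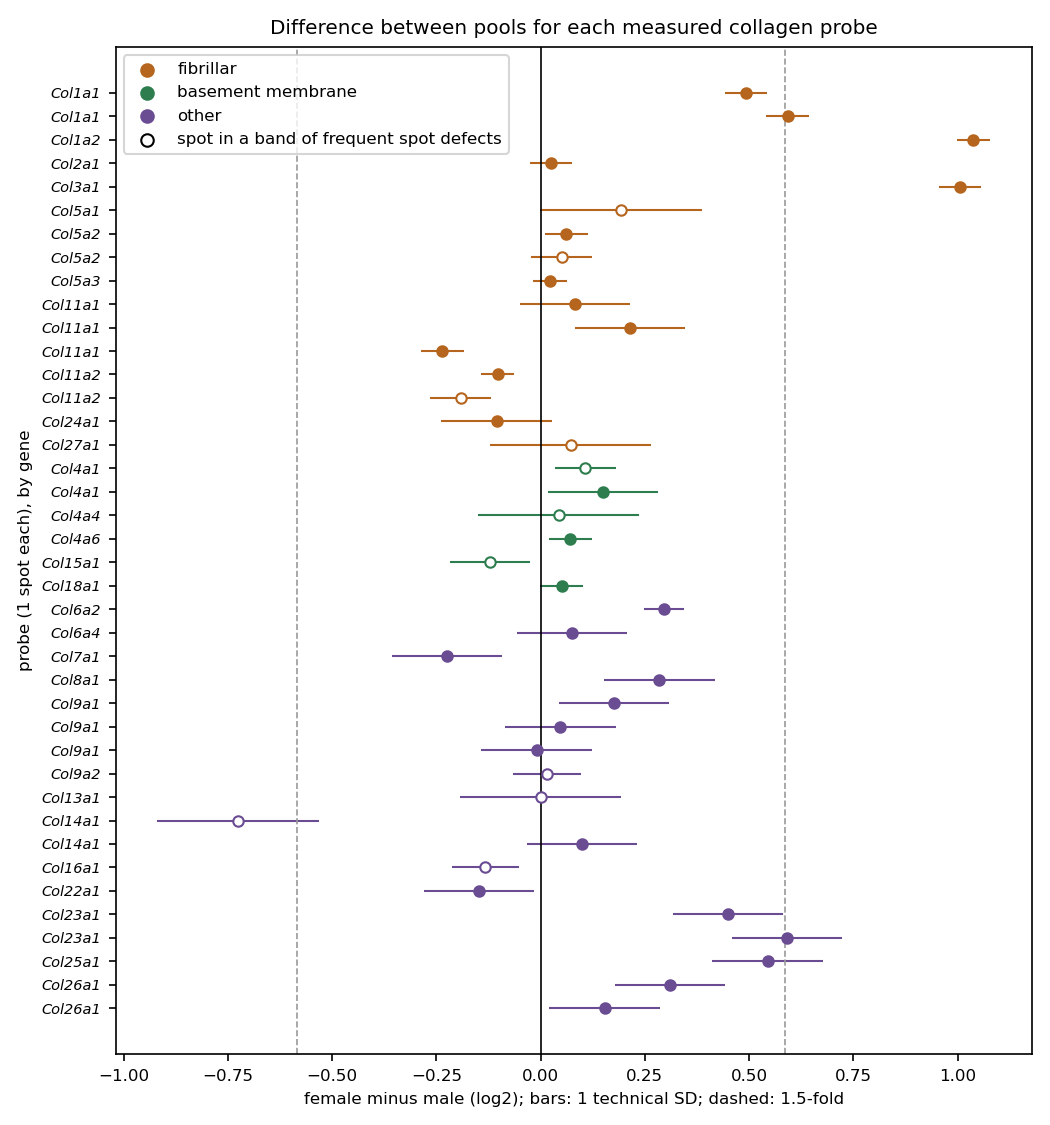
Difference of each measured collagen probe, female minus male in log2, with 1 technical SD as bars and dashed lines at 1.5-fold. Both probes of Col1a1 and the probes of Col1a2 and Col3a1 lie to the right of all other fibrillar and basement membrane probes. Open points are band spots, among them the Col14a1 probe furthest to the left.

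None of the 5 measured basement membrane genes differed by as much as 1.2-fold, with 4 on the female side and 1 on the male side. Of all genes, 86.9% differed by less than 1.2-fold and 50% were higher in the female pool. The basement membrane median was 0.050 log2, or -0.017 under spike-in scaling, -0.74 under normexp as planned and 0.067 with the extreme backgrounds reset. Col4a1 was at -2.83 in the female pool, against -2.96 in the male pool, and its probes differed by 0.11 and 0.15 log2, the first from a band spot. Col4a4, a band spot, was at -5.31 in the female pool, against -5.35 in the male pool. Col4a6 was at -2.40 in the female pool, against -2.47 in the male pool. All 3 type IV genes measured on probes that carry their names were higher in the female pool by less than 1.1-fold. Their median was 0.071 log2, but Col4a4 was lower with spike-in scaling and with quantile normalization, at -0.025 and -0.0016 log2. On probes named by transcripts, given below, Col4a2, Col4a5 and a second Col4a6 probe were lower, by -0.037, -0.15 and -0.28 log2. Col15a1 and Col18a1 encode the related collagens of basement membrane zones, and Col18a1 gives rise to the angiogenesis inhibitor endostatin. Col15a1, a band spot, was at -2.57 in the female pool, against -2.45 in the male pool. Col18a1 was at -2.43 in the female pool, against -2.48 in the male pool. These 2 differences had opposite signs and were each under 1.5 technical SD.

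Type IV genes lie in head-to-head pairs, and both members of each pair could be looked at once probes named in the files by a transcript were included. The starts of Col4a1 and Col4a2 are 76 bases apart on chromosome 16, those of Col4a3 and Col4a4 412 bases apart on chromosome 9, and those of Col4a5 and Col4a6 1414 bases apart on chromosome X, by the RefSeq starts of GRCr8. The whole stretch between the starts of Col4a1 and Col4a2, known in human and mouse as a promoter shared by both, is shown from chr16:84885521-84885596 on the strand of Col4a1.
Col4a1 and Col4a2: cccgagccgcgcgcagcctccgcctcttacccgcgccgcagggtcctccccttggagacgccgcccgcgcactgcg
It held neither CCAAT nor TATAAA on either strand. The 250 bases before the Col4a1 start reach beyond this stretch, and they are among the promoters counted above with CCAAT. Col4a2 was at -3.44 in the female pool, against -3.40 in the male pool, or -0.037 log2, where Col4a1 differed by 0.13 log2. Col4a5 was at -4.52 in the female pool, against -4.38 in the male pool. For Col4a6 a second probe, a band spot, was at -4.78 in the female pool, against -4.50 in the male pool, a sign opposite to that of its other probe. Col4a3, a band spot, was at -7.40 and not well above background in the female pool, against -5.58 in the male pool. These 2 readings were 3.53-fold apart, which is no firm lower bound because the female one did not pass the background criterion. Of all genes, 1.23% passed the background criterion only in the female pool, and 1.97% only in the male one. Col4a4, the pair partner of Col4a3, differed by 0.043 log2 with a technical SD of 0.19.

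Of the 17 other chains, 13 were measured, with 8 on the female side and 5 on the male side and none at least 1.5-fold apart. Their median was 0.071 log2, which normexp as planned turned to -1.62 and which was 0.23 with the extreme backgrounds reset. The largest 2 were transmembrane collagens, chosen after their values were seen because they lay just under 1.5-fold. Col25a1, whose shed ectodomain is known from amyloid plaques of human Alzheimer's disease, was at -3.38 in the female pool, against -3.93 in the male pool, or 0.54 log2 with a technical SD of 0.13. Col23a1 was at -4.68 in the female pool, against -5.20 in the male pool, and its 2 probes differed by 0.45 and 0.59 log2. Neither gene had a band spot. The remaining transmembrane chain measured, Col13a1, known from the neuromuscular junction, stood at -6.48 in both pools on a band spot. Col17a1, the hemidesmosome collagen, was at -7.82 and not well above background in the female pool, against -7.69 in the male pool where it was above it, a bound of 1.02-fold.

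The beaded filament chains among the 34 genes, Col6a2, Col6a4 and Col26a1, stood higher in the female pool by less than 1.3-fold, and stayed on that side under each of the 3 other scalings tried. Under normexp as planned they were at 0.13, -2.52 and -2.00 log2, and at 0.23, 0.36 and 0.24 with the extreme backgrounds reset. Collagen VI forms beaded microfilaments around many connective tissue cells. Its chain gene Col6a2 was at -0.65 in the female pool, against -0.94 in the male pool, or 0.30 log2 with a technical SD of 0.047. Col6a4 was at -7.48 in the female pool, against -7.55 in the male pool, near the lowest levels above background there, -7.72 and -7.97. Its difference of 0.075 log2 was smaller than its technical SD of 0.13. Col26a1 differed by 0.23 log2, its probes by 0.15 and 0.31. The partner chain of Col6a2 in collagen VI, Col6a1, was on a probe that the files name by a transcript. It was at -3.65 in the female pool, against -4.10 in the male pool, a 1.37-fold difference with a technical SD of 0.13. The 3 collagen VI chains measured, Col6a1, Col6a2 and Col6a4, were all higher in the female pool, but Col6a4 by less than its technical SD. The probes of the remaining chains, Col6a3, Col6a5 and Col6a6, were below the background criterion in both pools.

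The chains that sit on fibril surfaces showed no common direction, with 2 of 5 on the female side and a median of -0.13 log2. Col16a1 was at 0.64 in the female pool, against 0.77 in the male pool, and Col9a2 was at 0.30 in the female pool, against 0.28 in the male pool, a difference of 0.015 log2 that was -0.052 with spike-in scaling. Both were band spots. Col14a1, which binds fibrils of collagen I in tendon and skin, was at -5.46 in the female pool, against -5.14 in the male pool. Its 2 probes disagreed, a band spot at -0.73 log2 and a spot outside the bands at 0.10 log2. Collagen IX sits on fibrils of collagen II in cartilage and collagen XXII at tissue junctions. Col9a1 differed by 0.071 log2 over 3 probes and Col22a1 by -0.15 log2 on 1 probe. Of the network and anchoring chains, Col8a1, a collagen of vessel walls and of the corneal endothelium, was at -4.09 in the female pool, against -4.37 in the male pool, or 0.28 log2 with a technical SD of 0.13. Col7a1, the anchoring fibril chain of skin, was at -4.72 in the female pool, against -4.50 in the male pool.

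Col8a2, Col10a1 and Col12a1 were below the background criterion in both pools on the probes that carry their names. For Col12a1, 2 further probes named by transcripts were measured and differed by 0.22 and 0.29 log2. For Col10a1, the collagen of growth plate cartilage, a further probe was 0.74 log2 higher in the female pool, from a band spot with a technical SD of 0.19. Col20a1, on such a probe as well, differed by -0.063 log2. In all, 12 probes outside the naming rule belonged to 10 chains, of which 7 had no gene among the 34, and 8 of the probes were measured.

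**Figure D3:**
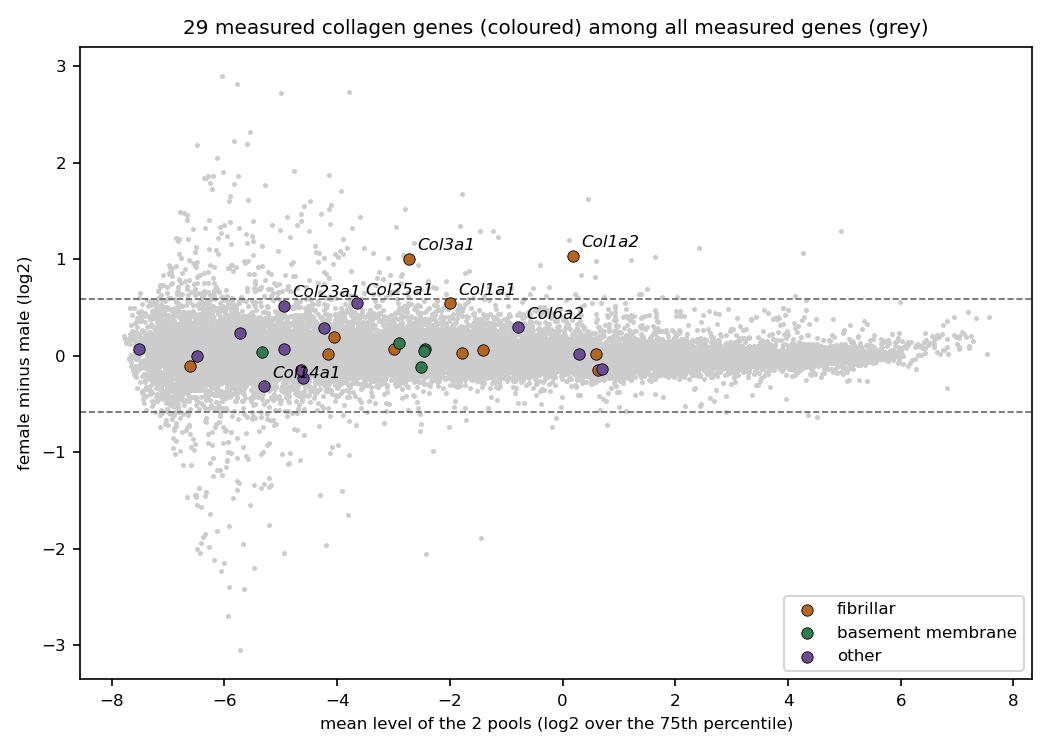
Difference between the pools, female minus male in log2, against the mean level of both pools for 29 measured collagen genes (coloured by class) among all 20664 measured genes (grey), with dashed lines at 1.5-fold. Col1a2 and Col3a1 lie above the upper line, Col1a1, Col23a1 and Col25a1 just below it. Grey points spread more at low levels.

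Agreement between probes could be read for 9 of the 29 measured collagen genes only. The shares over all genes were not worked out, and probes with small differences lie close together in any case. A second Col4a6 probe, named by a transcript and of opposite sign, is not counted here. Of the 9 collagen genes with several measured probes, 6 had all probes on the same side of 0 and 7 had probes within 0.2 log2 of each other, with a median range of 0.14 log2. The wide ones were Col11a1 and Col14a1. Differences of more than 4 technical SD were found for 6 of the 29 genes, or 20.7%, against 8.91% of all genes. All 6, namely Col1a1, Col1a2, Col3a1, Col6a2, Col23a1 and Col25a1, were higher in the female pool, and none of them had a band spot. Col23a1 and Col25a1 took the SD of the wide lowest level group, so their multiples of it are less certain. At least 1 band spot contributed to 11 of the 29 genes, and 18 had none. Among all genes with no band spot, 49.3% were higher in the female pool.

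The genes that act on collagen chains were described in the order in which a collagen is made. Of 16 measured genes of chain modification and folding, 9 were on the female side and 7 on the male side, and none was at least 1.5-fold apart. Their median was 0.046 log2, but -0.022 log2 under spike-in scaling, -0.080 under normexp as planned and 0.098 with the extreme backgrounds reset. P4ha1, a catalytic subunit of the prolyl 4-hydroxylase that stabilises the helix, was at -2.29 in the female pool, against -2.74 in the male pool. Serpinh1, the collagen chaperone HSP47, was 0.26 log2 higher in the female pool, P3h3, of the prolyl 3-hydroxylase family, 0.21 and P4ha3, a further prolyl 4-hydroxylase subunit on a band spot, 0.19.

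Of 10 measured genes of propeptide removal and crosslinking, 8 were on the female side, 3 of them by at least 1.5-fold. Of all genes, 50% were higher in the female pool and 1.56% at least 1.5-fold higher. The median of the 10 genes was 0.25 log2. It turned to -1.35 log2 under normexp as planned and was 0.28 with the extreme backgrounds reset. Adamts2, the main enzyme that removes the N-propeptide of collagens I and III, was at -3.44 in the female pool, against -4.05 in the male pool. Its relative Adamts3 was at -6.54 in the female pool, against -7.30 in the male pool. The lowest levels above background there were -7.72 and -7.97. The crosslinking enzyme gene Loxl2 was at -4.99 in the female pool, against -5.71 in the male pool. These 3 differences were 0.61, 0.76 and 0.72 log2, each on 1 spot outside the bands. Each had a technical SD of 0.13, that of the whole lowest level group. Pcolce, whose product enhances removal of the C-propeptide, was 0.52 log2 higher in the female pool. Its probes were at 0.36 and 0.68, 1 of them a band spot. Adamts14, Lox and Loxl4 were below the background criterion in both pools.

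Among 7 measured collagen receptors, 6 were on the female side, the median was 0.17 log2 and 1 was at least 1.5-fold higher. Of all genes, 50% were on the female side and 1.56% at least 1.5-fold higher there. Normexp as planned turned the receptor median to -1.35 log2, and with the backgrounds reset it was 0.20. The discoidin domain receptor genes Ddr1 and Ddr2 encode kinases switched on by fibrillar collagen. Ddr1, a band spot, was at -3.78 in the female pool, against -4.63 in the male pool. Ddr2 was at -4.30 in the female pool, against -4.62 in the male pool, with 1 of its 2 spots a band spot. Itga1, the alpha subunit of a collagen-binding integrin, differed by 0.17 ± 0.061 log2 (SD over 10 spots), and Itgb1, its beta subunit, by 0.18 log2 with probes of -0.072 and 0.43. The collagen receptor gene Lair1 was below the background criterion in both pools. Of 8 measured genes of collagen breakdown and its inhibitors, 5 were on the female side. Their median was 0.11 log2, or -0.12 under normexp as planned and 0.11 with the backgrounds reset. The metalloproteinase inhibitor gene Timp3 was at -2.64 in the female pool, against -3.48 in the male pool, 1 spot outside the bands. Its relatives Timp1 and Timp2 differed by 0.25 ± 0.037 log2 (SD over 10 spots) and 0.12 log2, and the collagenase gene Mmp13 by 0.13 log2. Timp2 was a band spot. Timp3 was the only gene of this list at least 1.5-fold apart, and Mmp8 and Mmp9 were below the background criterion in both pools.

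Markers of meningeal fibroblasts, listed without collagens, stood on the same side as the chains of collagens I and III. All 17 measured markers of 18 on the arrays were higher in the female pool, against 50% of all genes. At least 1.5-fold was reached by 11 of them, against 1.56% of all genes. The list was chosen with earlier results of these data known, so its direction is no independent evidence. The median of the 17 markers was 0.70 log2. Their summed signal, in percent of the 75th percentile, was 1328 in the female pool, against 821 in the male pool. Without the brightest gene, Igf2, it was 880 in the female pool, against 601 in the male pool. Sums without the brightest gene were added after the sums had been seen. The meningeal median was 0.050 log2 under normexp as planned, where that of all genes was -0.55, and 0.65 with the backgrounds reset. Ogn, a small leucine-rich proteoglycan gene, was at -0.82 in the female pool, against -2.11 in the male pool. The largest differences were those of Aldh1a2, Slc47a1 and Slc22a6, 1.92, 1.39 and 1.34 log2 on band spots, and Slc22a2 was well above background in the female pool only. Their part in the differences of Col1a2 and Col3a1 was not tested.

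The other tissues at the brain's borders and vessels were read from their own marker lists. The 9 measured choroid plexus markers, 6 of them on the female side, had a median of 0.15 log2 and a summed signal of 283 in the female pool, against 173 in the male pool. Most of that sum came from the Ttr spot, at 213 in the female pool, against 108 in the male pool, and the other 8 markers summed to 69.9 in the female pool, against 65.3 in the male pool. Normexp as planned put the choroid plexus median at -1.54 log2, and at 0.25 with the backgrounds reset. Kcnj13 and Ttr, both band spots, differed by 2.22 and 0.98 log2, Prlr and Aqp1 by 0.28 and 0.20 log2, and Cldn2 was not measured. For 12 mural cell markers, 6 higher and 6 lower, the median was 0.0061 log2. Their summed signal was 384 in the female pool, against 386 in the male pool. Without the brightest gene, Cspg4, it was 266 in the female pool, against 264 in the male pool. Cnn1, Abcc9, Notch3 and Des differed most, by 0.53, 0.50, -0.47 and 0.32 log2, all but Des on a band spot. For 13 endothelial markers, 7 higher and 6 lower, the median was 0.015 log2 and the summed signal 860 in the female pool, against 838 in the male pool, or without its brightest gene, Slc2a1, 429 in the female pool, against 448 in the male pool. Tie1, Emcn, Kdr and Erg led with -0.27, -0.18, -0.16 and 0.15 log2, Tie1 and Emcn on band spots. The mural and endothelial medians were -0.061 and -0.053 log2 with spike-in scaling, and -0.53 and -0.81 under normexp as planned. With the backgrounds reset these medians were 0.064 and 0.13. The part of these cell types in the collagen values was not tested.

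**Figure D4:**
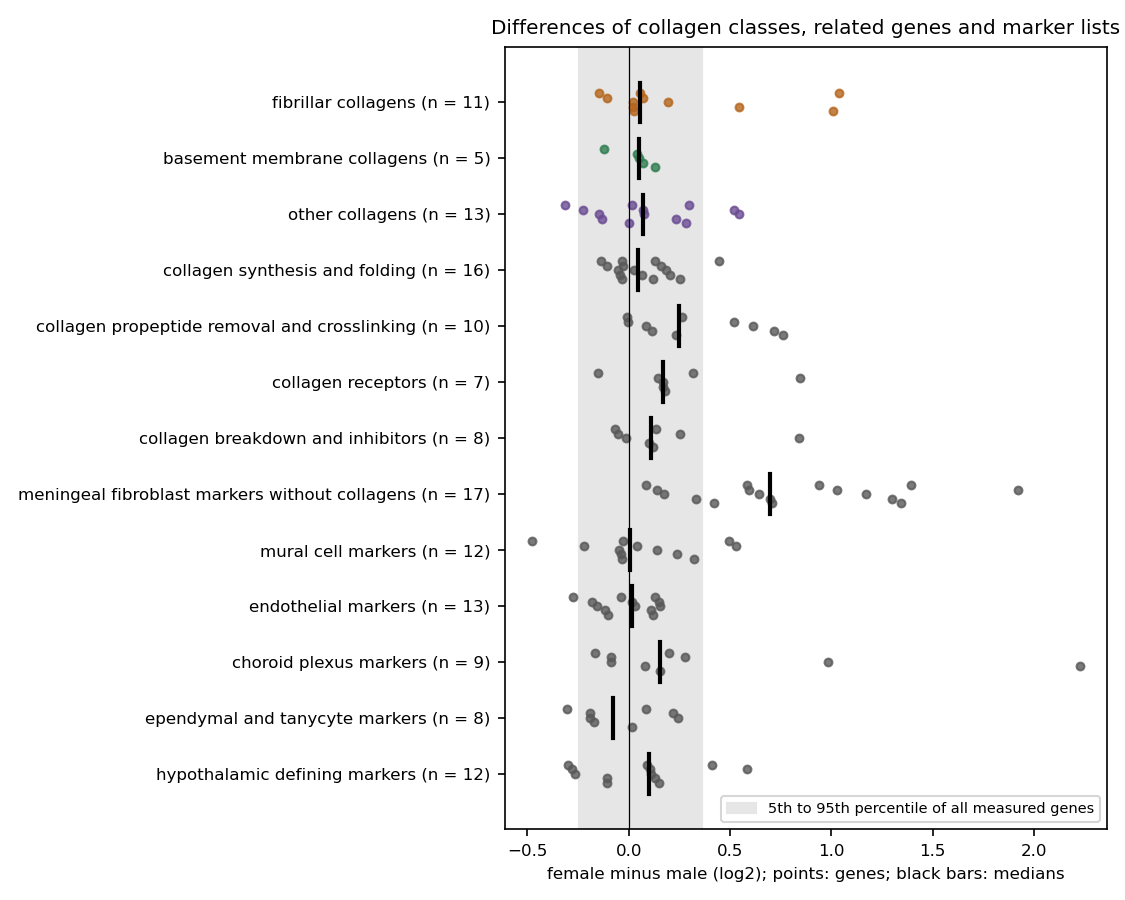
Differences, female minus male in log2, of the genes of each collagen class, each list of collagen-related genes and each marker list (points), with list medians as black bars and the number of measured genes in brackets. The grey area runs from the 5th to the 95th percentile of all measured genes, -0.25 to 0.36. The meningeal list, with a median of 0.70, lies mostly to the right of the grey area, and the collagen class medians lie between 0.050 and 0.071.

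Defining genes of the hypothalamus were read beside the tissue label, and all 12 were measured in both pools. So were 20664 of all 26328 gene names, and no other tissue was compared, so this hardly checks the label. The 12 genes had a median difference of 0.098 log2 and a summed signal of 18162 in the female pool, against 18110 in the male pool. Without Pmch, the brightest, the sum was 9589 in the female pool, against 10134 in the male pool. The median of the 12 genes was -0.035 log2 under normexp as planned and 0.11 with the backgrounds reset. Gnrh1, Crh, Agrp and Pomc differed most, by 0.58, 0.41, -0.30 and -0.28 log2. Agrp and Pomc were band spots, as were 6 of the 9 Gnrh1 spots and 3 of the 11 Crh spots. The 8 ependymal and tanycyte markers, 4 higher and 4 lower, had a median of -0.078 log2. That median was -0.86 under normexp as planned and 0.057 with the backgrounds reset. Rax, Vim, Dio2 and Ccdc153 were at -0.31, 0.24, 0.22 and -0.19 log2. Rax, Dio2 and Ccdc153 were each on a band spot, and 5 of the 10 Vim spots were band spots. The 75th percentile of the intensity was 2943 in the female pool, against 3769 in the male pool, and 84.2% and 84.9% of non-control spots were well above background in these pools. No spot was saturated, and no collagen spot carried an outlier flag.

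Across the alternative processings, each collagen gene kept its value to a different degree. Besides normexp as planned, 283 differences of single collagen genes were recomputed, of which 28 moved by more than the technical SD of the gene. Keeping outlier spots, dropping the filter on dim probes, requiring every spot well above background, and using the value table left all 29 genes the same. These settings could hardly do otherwise and say little on stability. No collagen spot was flagged, each probe had 1 spot, and no measured collagen gene had an unmeasured probe. The value table differed by a constant factor. The sign changed in 20 of the 283, in 11 genes, and the largest reported difference among these was that of Col14a1, whose remaining probe gave 0.10 log2 once band spots were left out. Col1a1 ran from 0.48 to 0.59 log2, Col1a2 from 0.97 to 1.04, Col3a1 from 0.90 to 1.01, Col23a1 from 0.38 to 0.52 and Col25a1 from 0.47 to 0.54. Under normexp as planned, Col23a1 and Col25a1 were at -1.56 and -0.72 log2.

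**Figure D5:**
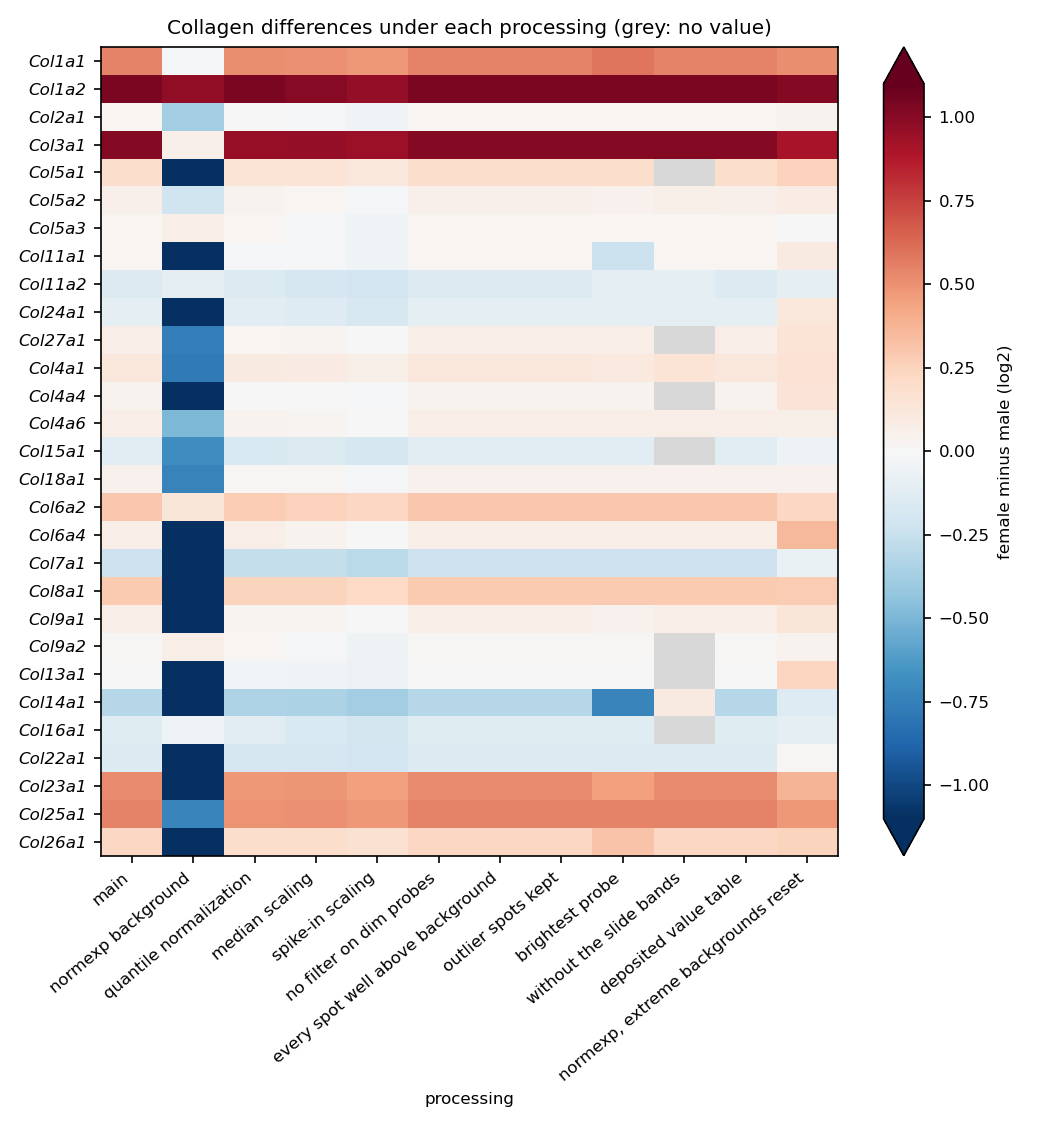
Difference of each measured collagen gene, female minus male in log2, as reported (main) and under each alternative processing, by colour, with values beyond 1.1 in the end colours and grey where no spot remained. The rows of Col1a2 and Col3a1 stay dark red in all columns but that of normexp as planned, where Col3a1 is pale and most chains turn blue.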

How the data were processed

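The data were 2 Agilent 1-colour arrays. The deposited scanner files held an intensity for each spot, background-subtracted and detrended within its array, and flags for spots well above background, saturated or outlying, made with Agilent Feature Extraction 10.7.3.1 per the file headers, which name build rn4. The submitters' processing notes name version 9.1, a mismatch that could not be resolved. The values of the deposited series table are a signal equal to that intensity over the 75th percentile of its array times 100, to within a constant factor of 0.999935 for the female and 0.999864 for the male pool over 36348 spots; it was linear and not centred, and its medians were 29.5 and 29.0.

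Levels were log2 of the processed intensity over the 75th percentile of the 42877 non-control spots of 44254 on each array. Outlier spots, 292 on the female array and 286 on the male array, were left out. Spots were averaged per probe and probes per gene name. Measured probes had more than 50% of spots well above background on each array. For a gene above background in 1 pool only, the fold given set its level against the dim pool's value or the lowest level passing the background criterion there, whichever was higher. Spot noise was not allowed for in that fold. Technical SDs came from 12682 spots of 1310 probes with at least 5 spots, in 5 level groups, inside and outside the bands. Bands were windows of 20 slide rows whose share of spots straying by over 4 robust SD was at least 3 times the median share, a rule set with the spread of the repeated spots known. Python 3.11.15, pandas 2.3.3 and R 4.3.3 with limma 3.58.1 (normexp) were used, and the calculation was tested on simulated data.

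Collagen genes, related lists and marker lists were chosen with earlier results of these data known, so their direction is no independent evidence. All measured fibrillar and basement membrane genes are named, other collagen genes at least 1.5-fold apart, measured in 1 pool only or among the 3 brightest, and examples of the rest, and of each list the 4 genes with the largest difference. Promoters and starts are RefSeq's, assembly GRCr8; 26 of the 34 genes had a promoter entry. Alternatives were other background corrections, scalings, filters, probe rules, slide rows, the value table and other groupings of chains.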

Additional observations from a re-analysis of the deposited data

How the results depend on the processing

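No paired analysis was possible because each sex had 1 array, and for the same reason no replicate could be left out. No collagen gene at least 1.5-fold apart changed sign, and the count at least 1.5-fold higher was 2 except under normexp as planned, with the brightest probe, where Col1a1 made it 3, and with chains named only in the descriptions, where Col10a1 made it 3. Normexp as planned moved the median of all genes to -0.55 log2, with 48 genes higher and 10084 lower by at least 1.5-fold, against 322 and 174, and 1 collagen gene higher and 18 lower. The highest local background was 22727 on the male array, where the median was 39, and 98 on the female array. Its medians were -0.22 log2 for fibrillar, -0.74 for basement membrane and -1.62 for other collagens, -0.080 for synthesis, -1.35 for crosslinking, -1.35 for receptors, -0.12 for breakdown, 0.050 for meningeal, -0.53 for mural, -0.81 for endothelial, -1.54 for choroid plexus, -0.86 for ependymal and -0.035 for hypothalamic markers. With backgrounds over 10 times the median reset on 3 male spots, a step added after seeing the data, the medians were 0.12 for fibrillar and 0.23 for other collagens, 0.098 for synthesis, 0.13 for endothelial, 0.25 for choroid plexus and 0.057 for ependymal markers, with 174 genes higher and 37 lower. Spike-in scaling gave medians of -0.011 for fibrillar collagens, -0.022 for synthesis, 0.63 for meningeal and 0.031 for hypothalamic markers. Without the slide bands, 140 genes were higher and 37 lower, and the medians were 0.57 for meningeal, 0.12 for endothelial and 0.050 for ependymal markers. Without a filter on dim probes, 1201 genes were higher and 878 lower, among the lower 1 collagen gene, Col4a3. With the brightest probe, 1 collagen gene, Col14a1, was at least 1.5-fold lower, and the medians were 0.013 for ependymal and -0.0042 for hypothalamic markers. Adding chains named only in the descriptions, a choice made after seeing the data, gave -0.037 for basement membrane collagens. The cause of these shifts was not tested, except that fewer or more genes were counted without the bands or the filter, and that the 3 reset spots moved the normexp values. With 1 array a pool, differences near the technical SD cannot be told from 0, and dim genes have the widest technical SD. Within the lowest level group that SD did not vary with level. Among the listed genes at those levels, the SD over repeated spots was 0.35 log2 for Mmp13 and 0.24 for Pcolce2. It was 0.14 for Prlr and 0.11 for Aqp1.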
